A study of Homo sapiens with 12 samples.

Results

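The cytokine and chemokine genes of RKO cells were read from 9 genes among 11963 that the array measures through a probe set of their own: the chemokine genes CXCL8, CXCL1, CXCL2, CXCL3 and CCL20, the cytokine subunit gene EBI3, and the cytokine genes IL11, LIF and IL6. Each gene was read from the probe set, annotated to that gene alone, with the highest mean over the 12 arrays; CXCL8 and IL11 have another such probe set, which is reported beside it. With 5-fluorouracil (5-FU) alone, 7 of the 9 genes rose against the control and none fell, whereas 4.32% of all genes rose in that comparison. Of these 7, CXCL1 and CCL20 stayed near background in all groups. The 5-FU mean of CXCL3 was 1.09-fold over the background level, and near background when 5-FU replicate 3 was left out. IL11, above background in all groups, rose 5.61-fold, while EBI3 and CXCL8, near background in the control, rose to means 6.88-fold and 2.04-fold over the background level. With thymoquinone (TQ) alone none of the 9 passed the test. With TQ added to 5-FU, EBI3 and CXCL2 were lower than with 5-FU alone, as was CXCL1 at an adjusted p just under the threshold that most omissions of a single array took over it, and IL11 was the 1 gene of the 9 that stayed above the control past the threshold. That IL11 call was lost in 5 of the 12 omissions of a single array, and the other IL11 probe set did not pass. Without 2 arrays that stood apart, described below, EBI3, CXCL8 and CXCL3 passed against the control as well.

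Chemokines are small secreted proteins that direct the migration of leukocytes. CXCL8, CXCL1, CXCL2 and CXCL3 attract neutrophils through the receptors CXCR1 and CXCR2, and CCL20 attracts cells that carry CCR6. IL-6, IL-11 and LIF signal through receptor complexes that share the subunit gp130, encoded by IL6ST, and activate STAT3. The product of EBI3 is secreted as a partner of other chains, p28 (IL27) in IL-27 and p35 (IL12A) in IL-35. In epithelial tumour cells many of these genes are known targets of the transcription factors NF-κB and AP-1, and carcinoma cells can release the proteins into the tissue around them.

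RKO is an established human colorectal adenocarcinoma line, and its RNA was measured on Affymetrix Human Genome U133A 2.0 arrays. The 4 groups had 3 arrays each: control, TQ at 20 µM, 5-FU at 10 µg/mL (76.8 µM), and both drugs at those doses given together (TQ+5-FU). Treatment lasted 24 h and began 48 h after plating; the control cells are untreated by the labels, while the study's methods give them the solvent DMSO. Values are log2 signals normalized with robust multi-array averaging (RMA), with array medians between 6.34 and 6.57.

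A difference is a log2 difference from limma, fitted to all 12 arrays, and rose or fell is written of a gene whose Benjamini-Hochberg adjusted p over all probe sets is under 0.05. The labels do not say whether replicates were separate cultures, while the study's methods refer to independent biological replicates without describing those of the arrays. The p-values therefore reflect only how far these arrays spread, which may be technical, and the 3 arrays of a group limit the precision. No probe set carries a detection call. A mean under log2 6.31, the 90th percentile of 35 genes of other tissues, is called near background. Where 1 of the groups compared is near background, a log2 difference is one of signals and not of transcript amounts, so the bound given for a fold is the other group's mean over that level. As the RNA of whole cultures was measured, fewer cells that transcribe a gene and less RNA per cell cannot be told apart.

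Among the 12 arrays, 5-FU replicate 3 stood apart from its own replicates. It had a mean correlation of 0.911 with the other arrays of its group and was nearest to TQ+5-FU replicate 2. TQ+5-FU replicate 2 stood apart less clearly. Its mean correlation, 0.978, was the lowest of its group beside 0.984 and 0.990, but its nearest array was TQ+5-FU replicate 3. These 2 are called the displaced arrays. Each result is also given without them where it changes, a choice made after the data were seen. Of the 10 epithelial markers EPCAM, KRT8, KRT18 and CDX2 were above background, while CDH1 was near it at log2 3.60 to 3.83 in the group means. None of the 12 leukocyte markers was above background by its mean over all arrays, and PTPRC, the pan-leukocyte marker, lay between 3.69 and 3.98. The summed linear signal of these 12 markers was 333 to 356 in the control, 313 to 336 with TQ, 322 to 544 with 5-FU and 308 to 415 with both drugs, the highest sums being those of 5-FU replicate 3 and TQ+5-FU replicate 2. Of 10 fibroblast markers 1, COL1A1, was above background, and the list's sum was 519 to 578 in the control and 525 to 820 with 5-FU, again highest in replicate 3. Of 7 endothelial markers 1 was above background, with sums of 192 to 234 in the control and 226 to 382 with 5-FU. The part of these signals in the results was not tested.

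The promoters of the genes are shown because NF-κB and AP-1 genes, described further on, were measured on the same arrays. The set of promoter windows used here held 8 of the 9 genes, and LIF was not among them. The 150 bases before the annotated start are printed 5′ to 3′ on the strand of the gene, for GRCh38.p14, for the genes of the CXCL cluster, EBI3 and IL11. Capitals mark letters that match GGNNTTTCC, the NF-κB type, or TGANTCA, the AP-1 type, on either strand, with no overlap between matches.
EBI3 (chr19:4229373-4229522, plus strand): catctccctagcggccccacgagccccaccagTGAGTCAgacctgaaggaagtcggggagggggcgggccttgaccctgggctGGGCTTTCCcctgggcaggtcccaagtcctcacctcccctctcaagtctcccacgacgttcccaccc
CXCL8 (chr4:73740419-73740568, plus strand): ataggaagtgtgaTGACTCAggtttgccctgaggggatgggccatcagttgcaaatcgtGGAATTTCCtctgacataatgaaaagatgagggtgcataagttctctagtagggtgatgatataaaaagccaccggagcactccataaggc
CXCL1 (chr4:73869243-73869392, plus strand): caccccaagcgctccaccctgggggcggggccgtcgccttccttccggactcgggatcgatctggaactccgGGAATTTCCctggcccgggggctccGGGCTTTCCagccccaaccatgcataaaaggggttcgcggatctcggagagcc
CXCL3 (chr4:74038690-74038839, minus strand): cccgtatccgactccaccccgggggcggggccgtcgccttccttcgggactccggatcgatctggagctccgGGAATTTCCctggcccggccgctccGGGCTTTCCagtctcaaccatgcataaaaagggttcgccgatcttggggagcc
CXCL2 (chr4:74099196-74099345, minus strand): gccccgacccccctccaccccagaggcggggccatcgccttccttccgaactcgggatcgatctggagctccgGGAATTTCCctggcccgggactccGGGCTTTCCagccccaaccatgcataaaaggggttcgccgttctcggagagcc
IL11 (chr19:55370464-55370613, minus strand): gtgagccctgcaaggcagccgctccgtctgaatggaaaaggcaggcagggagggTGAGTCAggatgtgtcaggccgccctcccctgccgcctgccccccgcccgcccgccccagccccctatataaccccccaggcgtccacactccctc

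The NF-κB type letters occurred in 7 of the 8 windows, those of CXCL8, CXCL1, CXCL2, CXCL3, CCL20, EBI3 and IL6, and in 3.46% of 35116 promoter windows of the same length. The AP-1 type letters occurred in the windows of CXCL8, EBI3 and IL11 and in 4.17% of those promoters. In CXCL1 and CXCL3 the NF-κB type matches began 78 and 53 bases before the start, and in CXCL2 77 and 53 bases before it. In EBI3 the NF-κB type match began 67 bases and the AP-1 type match 118 bases before the start, and in CXCL8 at 91 and 137. The window of CXCL1 was identical to that of CXCL3 at 129 of 150 positions (86%) with no shift between them, and with a shift of 1 base the window of CXCL2 matched that of CXCL1 at 67.1% and that of CXCL3 at 65.8% of 149 positions. Whole windows were shifted and no gap was allowed. As the 2 matches of CXCL2 are spaced otherwise than those of CXCL1 and CXCL3, part of its window was compared out of step. The percentages for CXCL2 are therefore lower bounds and do not rank it as less like the other genes. IL11 held the AP-1 type letters 96 bases before its start and no NF-κB type match, which says only that those letters are not in this window. The motifs were chosen after these promoters had been read, so the counts are a description.

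**Figure D1:**
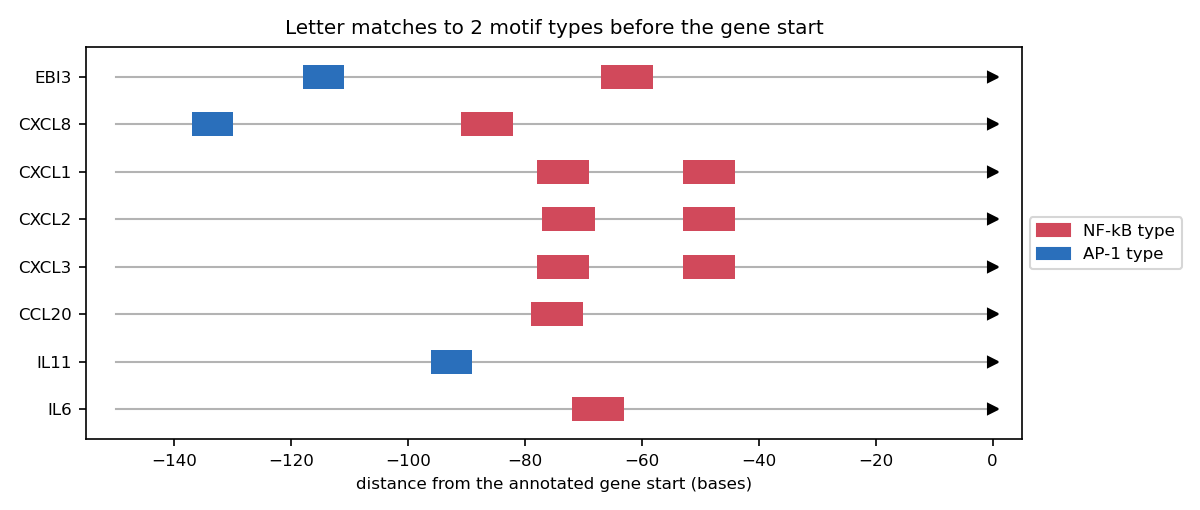
Position of the letter matches in the 150 bases before the annotated start of 8 genes; the x axis gives the distance from the start in bases, red boxes are NF-κB type matches and blue boxes AP-1 type matches. The NF-κB type boxes of CXCL1, CXCL2 and CXCL3 lie at nearly the same places, from 78 and 53 bases before the start in CXCL1 and CXCL3.

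EBI3 was near background in every group but 5-FU alone, where it rose. Its log2 signals were 5.05, 5.31 and 5.16 in the control and 5.08, 4.65 and 4.75 with TQ. With 5-FU they were 8.80, 8.74 and 9.73, and with both drugs 5.81, 6.34 and 6.13. The 5-FU arrays stood above all others, the arrays with both drugs stood between them and the control, and the TQ arrays overlapped the control. Against the control EBI3 rose by 3.92 (SE 0.25, 95% interval 3.35 to 4.48, limma adjusted p = 2.39e-05) with 5-FU, and by 3.60 without the 2 displaced arrays. As its control was near background, the rise is given as at least 6.88-fold, the 5-FU mean of 9.09 over the background level.

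With TQ added to 5-FU, EBI3 fell by 2.997 on the log2 scale against 5-FU alone (limma adjusted p = 8.91e-04), to a mean of 6.09 that is itself near background. TQ alone differed from the control by -0.35 (adjusted p = 0.719). The interaction, which is the difference TQ made in 5-FU treated cells minus the difference it made in control cells, was -2.65 (95% interval -3.44 to -1.85, adjusted p = 0.0318). EBI3 was the 1 gene of the 9 with an interaction past the threshold, against 0.167% of all genes in either direction and 0.0418% below zero. The interaction was -2.45 (adjusted p = 3.90e-04) without the displaced arrays. It missed the threshold when any single array other than 5-FU replicate 3 was left out, at values from -2.82 to -2.51 with adjusted p up to 0.156. Control and TQ were both near background, where a lowering by TQ without 5-FU could not be read, so the interaction cannot be told apart from the difference between both drugs and 5-FU. Against the control, the 3 arrays with both drugs were higher by 0.92 without overlap (adjusted p = 0.104), and against TQ by 1.27 (adjusted p = 0.0501). Both of these comparisons passed without the 2 displaced arrays, with adjusted p of 0.00261 and 9.49e-04.

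CXCL8, which encodes the neutrophil chemokine interleukin-8, had log2 signals of 5.49, 5.28 and 5.46 in the control and 5.78, 5.51 and 5.55 with TQ. With 5-FU they were 7.81, 7.88 and 6.32, and with both drugs 6.29, 5.78 and 6.04. The 5-FU arrays were above all control arrays, but replicate 3, a displaced array, was well below the other 2 and stood next to the highest array with both drugs. CXCL8 rose by 1.93 (SE 0.35, limma adjusted p = 0.0079) with 5-FU and by 2.44 without the displaced arrays. TQ+5-FU against 5-FU was -1.30 (95% interval -2.07 to -0.54, adjusted p = 0.153), which missed the threshold although the groups did not overlap, and -1.68 (adjusted p = 5.57e-05) without the displaced arrays. Its other probe set showed the same in 5-FU, with 7.91, 7.86 and 5.92, a difference from the control of 1.95 (adjusted p = 0.0211) and of 2.61 without the displaced arrays. For both drugs against 5-FU that probe set overlapped, at -1.17 (adjusted p = 0.376), and gave -1.73 (adjusted p = 2.91e-05) without the displaced arrays.

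CXCL1, CXCL2 and CXCL3, the closely related growth-regulated chemokine genes, all rose with 5-FU. Their sequences are alike and the probe set of CXCL2 is of the kind that may share probes with related genes, so how the signal divides between them is uncertain. CXCL2 had log2 signals of 5.37, 5.56 and 5.57 in the control and 5.33, 5.61 and 5.45 with TQ. The 5-FU arrays gave 6.77, 6.97 and 7.20, and those with both drugs 5.64, 5.99 and 5.79. Each 5-FU array was above every array of the other 3 groups, and TQ overlapped the control. CXCL2 rose by 1.48 (SE 0.14, adjusted p = 2.91e-04) with 5-FU and was lower by 1.17 with both drugs than with 5-FU (limma adjusted p = 0.00623). Its interaction of -1.14 had an adjusted p of 0.0852, and of 0.00355 without the displaced arrays.

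CXCL3 had log2 signals of 5.27, 5.13 and 5.30 in the control and 5.18, 5.30 and 5.12 with TQ. With 5-FU they were 6.22, 6.34 and 6.74, and with both drugs 5.58, 6.06 and 5.65. The groups kept the order of CXCL2, with no overlap between 5-FU and both drugs or between both drugs and the control. CXCL3 rose by 1.20 (adjusted p = 0.00194) with 5-FU, while the difference of -0.67 between both drugs and 5-FU had a limma adjusted p of 0.121, and of 0.00392 without the displaced arrays.

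CXCL1 stayed near background in all 4 groups, at log2 3.92, 3.91 and 3.93 in the control and 3.76, 3.70 and 3.57 with TQ. The 5-FU arrays gave 4.62, 5.81 and 5.68, and those with both drugs 3.93, 4.22 and 3.93. The 5-FU arrays were above all others, with replicate 1 well under the other 2, and the arrays with both drugs overlapped the control. CXCL1 rose by 1.45 (adjusted p = 0.00775) with 5-FU. It was lower by 1.35 with both drugs than with 5-FU, at a limma adjusted p of 0.04997 that 10 of the 12 omissions of a single array took over the threshold, up to 0.208.

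CCL20, which encodes the ligand of CCR6, was near background in all groups and had a smaller rise. Its log2 signals were 4.80, 4.30 and 4.61 in the control and 4.77, 4.66 and 4.61 with TQ. With 5-FU they were 5.39, 5.22 and 5.34, and with both drugs 4.86, 5.09 and 4.90. The 5-FU arrays lay above the other 9, and those with both drugs lay between them and the control. CCL20 rose by 0.75 (SE 0.14, limma adjusted p = 0.00897) with 5-FU, and with both drugs it differed from 5-FU by -0.37 (adjusted p = 0.396) and from the control by 0.38 (adjusted p = 0.262).

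IL11, a cytokine of the gp130 family, was above background in all 4 groups and high in both groups that received 5-FU. Its log2 signals were 7.91, 7.88 and 8.21 in the control and 8.36, 7.96 and 7.76 with TQ. The 5-FU arrays gave 10.07, 10.27 and 11.13, and those with both drugs 9.12, 10.08 and 9.83. Control and TQ overlapped, 5-FU and both drugs overlapped, and each of the latter groups lay wholly above each of the former. IL11 rose by 2.49 (SE 0.31, limma adjusted p = 0.00115) with 5-FU and by 1.67 (3.19-fold, adjusted p = 0.0202) with both drugs. Against TQ alone it was higher by 1.65 with both drugs (adjusted p = 0.0405).

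The difference of IL11 between both drugs and 5-FU was -0.81 (95% interval -1.51 to -0.12, limma adjusted p = 0.410), and its interaction was -0.84 (95% interval -1.82 to 0.14, adjusted p = 0.985). Whether TQ changed the response of EBI3 more than that of IL11 was not tested. The call with both drugs against the control was lost without any 1 control array or without TQ+5-FU replicate 2 or 3, at adjusted p up to 0.103. The other probe set of IL11 passed with 5-FU against the control, at 1.70 (adjusted p = 0.00275), and not with both drugs, at 0.94 (adjusted p = 0.0911). Without the displaced arrays that probe set passed with both drugs against the control, at 0.75 (limma adjusted p = 0.00292). In that fit it was also lower with both drugs than with 5-FU, by 0.67 (adjusted p = 0.0226). Its interaction there was -0.76 (adjusted p = 0.0328). The first probe set passed neither of the latter comparisons in that fit (limma adjusted p = 0.122 and 0.165).

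LIF, which encodes another gp130 cytokine, gave signals far above background on every array and did not pass any comparison. Its log2 signals were 10.18, 10.22 and 10.23 in the control and 10.21, 10.13 and 9.98 with TQ. With 5-FU they were 10.47, 10.46 and 11.18, and with both drugs 10.16, 10.64 and 10.44. The 5-FU arrays were above the control, with replicate 3 the highest, and the arrays with both drugs overlapped the control. The difference with 5-FU was 0.49 (95% interval 0.06 to 0.93, limma adjusted p = 0.200), and 0.26 without the displaced arrays.

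IL6 was near background in all groups, at 3.89 to 3.97 in the control, 3.58 to 3.92 with TQ, 3.71 to 4.26 with 5-FU and 3.89 to 4.22 with both drugs. The groups overlapped in every comparison, and the difference with 5-FU was 0.01 (95% interval -0.34 to 0.37, limma adjusted p = 0.968).

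**Figure D2:**
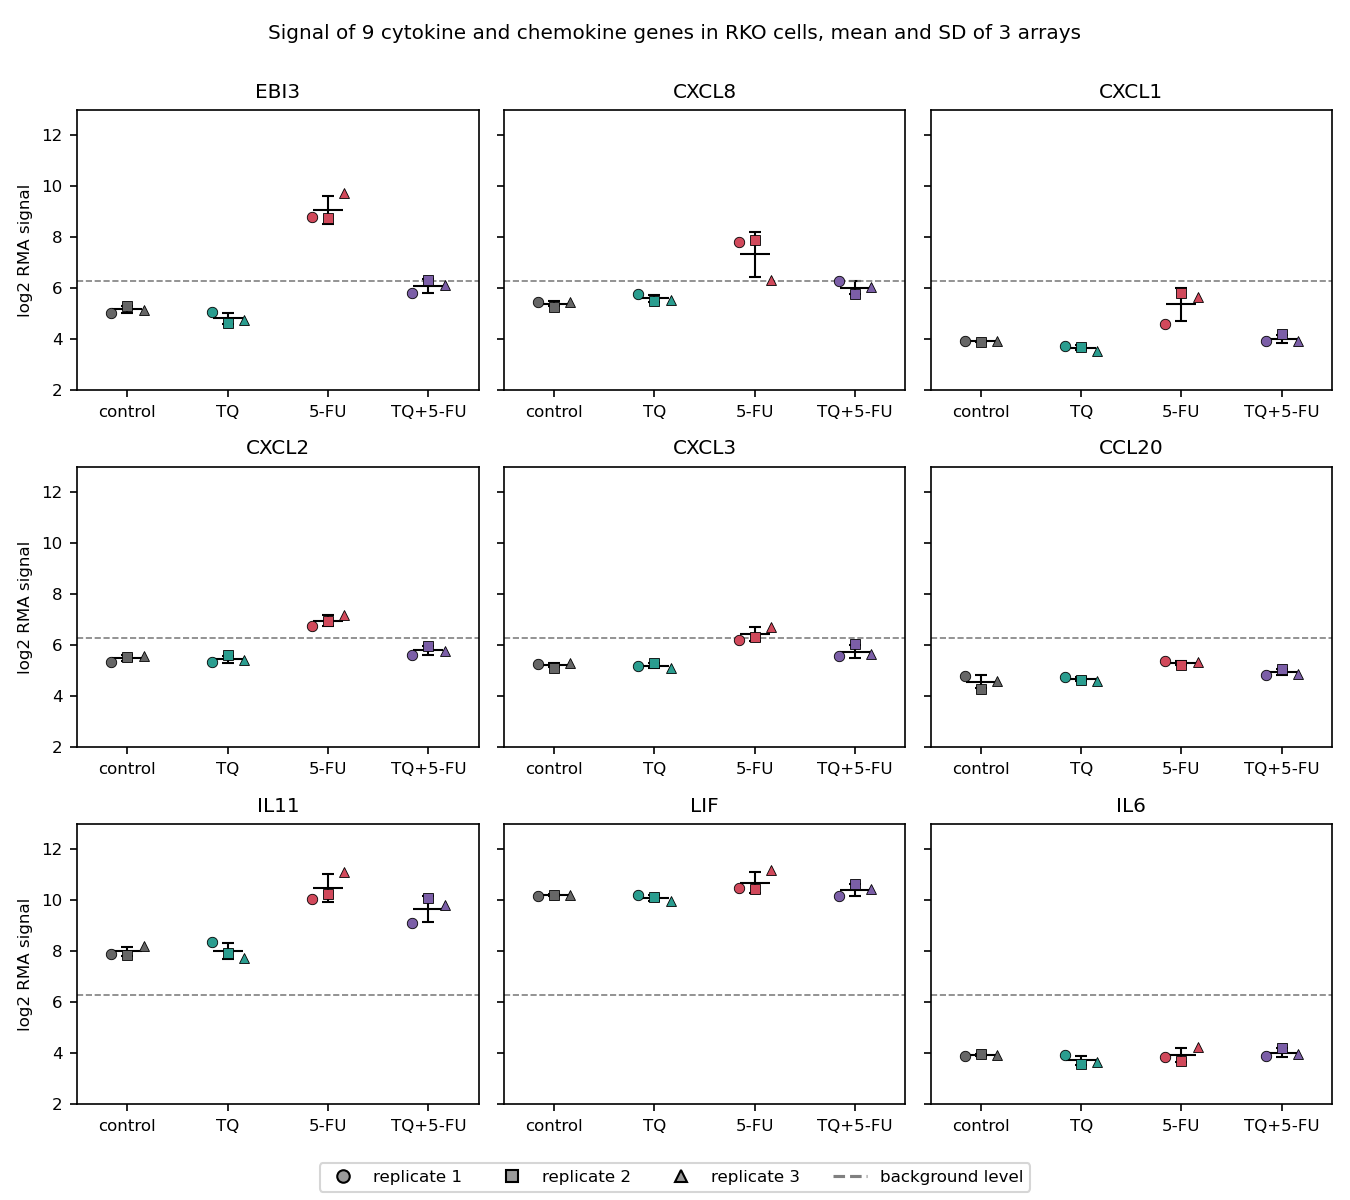
Log2 RMA signal of the 9 genes on each of the 12 arrays; the x axis gives the group, symbols mark the replicate, bars give the mean and SD of 3 arrays, and the dashed line is the background level of 6.31. The 5-FU arrays of EBI3 lie between 8.74 and 9.73, above all other arrays, whereas for IL11 the arrays with both drugs, at 9.12 to 10.08, overlap those with 5-FU.

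Set side by side over the groups, 7 of the 9 genes were near background in the control: EBI3, CXCL8, CXCL1, CXCL2, CXCL3, CCL20 and IL6. EBI3, CXCL8, CXCL2 and CXCL3 had a mean above background with 5-FU alone of the 4 groups, and CXCL1, CCL20 and IL6 in no group. For CXCL3 that mean was 1.09-fold over the level, and without the displaced array it was 6.28, near background. In 8 genes the order of the group means put 5-FU first and both drugs second. Control and TQ, the lowest means of these 8, overlapped in EBI3, CXCL2, CXCL3, CCL20, IL11 and LIF.

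The comparisons with the control share its 3 arrays and are therefore not independent of each other. With TQ alone 0 of the 9 genes passed limma's test, where 0.267% of all genes did, and none of the 9 had an unadjusted p under 0.05. The differences lay between -0.35 (EBI3) and 0.20 (CXCL8), with a median of -0.03 against -0.09 over all genes. The TQ arrays did not overlap the control in CXCL8, where they were higher by 0.20, and in CXCL1, where they differed by -0.25, while 17.5% and 28.9% of all genes were higher or lower without overlap. Limma on the arrays of those 2 groups and the methods' t-test with no adjustment called CXCL1. In the fit without the displaced arrays 0 of the 9 passed as well, where 32.4% of all genes did.

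With 5-FU alone 7 genes rose and none fell, and 8 of the 9, LIF included, were higher in all 3 arrays than in any control array. Over all genes, 7.29% passed in either direction and 14.2% were higher without overlap. The median difference of the 9 genes was 1.45, against 0.09 over all genes. Each of the 7 calls held when any single array was left out, and 7 genes rose also without both displaced arrays, where 14.9% of all genes rose. The methods' own test over all 4 groups did not call CXCL8. The methods' t-test with Benjamini-Hochberg adjustment called EBI3 and CXCL2, and limma on the arrays of those 2 groups EBI3, CXCL2 and IL11.

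With both drugs 1 gene, IL11, rose against the control, where 2.63% of all genes passed and 1.78% rose. The arrays of 6 genes were higher than the control without overlap, against 13.6% of all genes, and the median difference was 0.38, against 0.01. Without the displaced arrays 4 genes rose, which were IL11, EBI3, CXCL8 and CXCL3, as did 12.7% of all genes. Against TQ, the 1 gene higher was again IL11, where 1.15% of all genes passed and 1.05% were higher, and the arrays of 6 genes were higher without overlap, as were 20.8% of all genes. The IL11 call against TQ missed the threshold in 9 of the 12 omissions of a single array, at adjusted p up to 0.205, and with limma on the arrays of those 2 groups the 1 gene called was EBI3. Leaving out both displaced arrays, IL11, EBI3, CXCL8 and CXCL3 were higher than with TQ, as were 8.55% of all genes.

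Between both drugs and 5-FU alone, 3 genes fell, EBI3, CXCL2 and CXCL1, where 0.802% of all genes passed in either direction and 0.368% fell. The CXCL1 call was lost in 10 of the 12 omissions of a single array and with the replicate number as a block (adjusted p = 0.0953). In 6 genes each array with both drugs was lower than each 5-FU array, against 5.31% of all genes, and the median difference was -0.81, against -0.06. Without the displaced arrays 5 genes fell, CXCL8 and CXCL3 being added, as did 3.24% of all genes. The interaction was below zero in 8 of the 9 genes, with a median of -0.84 against 0.0044 over all genes, and IL6 was the exception at 0.30. Of these 8, EBI3, CXCL8, CXCL1, CXCL2, CXCL3 and CCL20 were near background in the control and with TQ, and their interactions cannot be read apart from the lower signal with both drugs than with 5-FU. Without the displaced arrays the interaction passed below zero in EBI3, CXCL8, CXCL2 and CXCL3, as in 5.21% of all genes. The comparison of both drugs with 5-FU and the interaction use the same 5-FU arrays in which 7 of the 9 genes rose against the control. They are therefore not independent of that result, and the genes were chosen with earlier results of these data known.

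**Figure D3:**
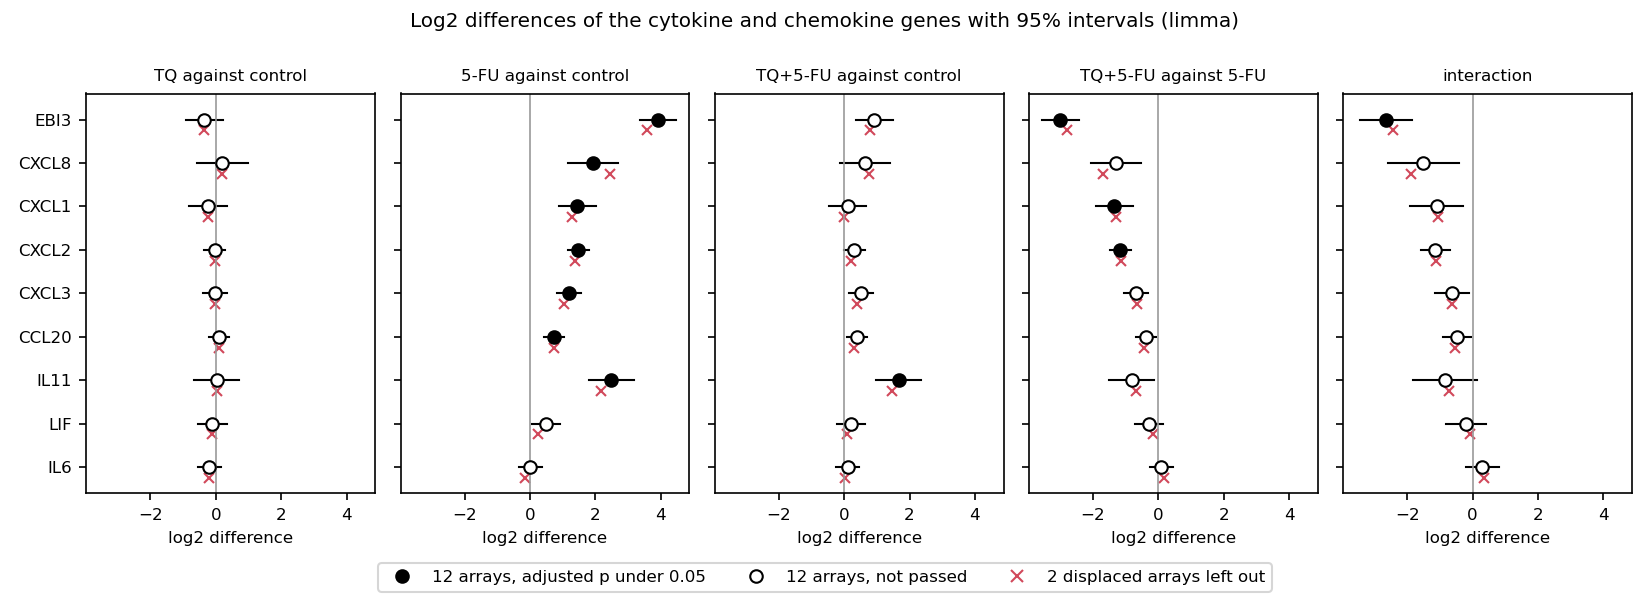
Log2 differences of the 9 genes in 5 comparisons, with 95% intervals from limma; the x axis is the log2 difference, filled points passed at an adjusted p under 0.05, open points did not, and crosses give the value without the 2 displaced arrays. The 7 filled points with 5-FU against the control contrast with 1 with both drugs against the control, and 3 lie below zero for both drugs against 5-FU.

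The receptors and partner chains of these cytokines were measured through 12 of 13 genes, and 7 of the 12 were near background in all groups. IL27RA, the receptor chain of IL-27, rose by 0.93 (limma adjusted p = 0.00867) with 5-FU, from 9.30 ± 0.12 to 10.23 ± 0.33 (SD, n = 3). IL12A, whose product pairs with that of EBI3, rose by 0.78 (limma adjusted p = 0.0152) with 5-FU and by 0.80 (adjusted p = 0.0276) with both drugs, but its group means of 5.12 to 5.92 are near background. IL6R, the binding chain of the IL-6 receptor, fell by 0.79 (limma adjusted p = 0.00404) with 5-FU, and was higher by 0.88 (adjusted p = 0.0129) with both drugs than with 5-FU. These 3 were the genes of this list past the threshold in any of the 6 comparisons, where 4.32% of all genes rose and 2.97% fell with 5-FU. Without the displaced arrays 4 of the 12 rose with 5-FU, as did 14.9% of all genes.

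IL11RA, the binding chain for IL-11, had 5.78 ± 0.14 in the control and 6.64 ± 0.46 with 5-FU (SD, n = 3), a difference of 0.86 at a limma adjusted p of 0.0505. IL6ST, the gp130 gene, varied between the arrays of a group, with an SD of 1.44 around 7.83 with 5-FU and of 1.09 around 7.95 with both drugs. With TQ it was 9.05 ± 0.11 and in the control 7.55 ± 0.48 (SD, n = 3), a difference with a limma adjusted p of 0.517, and of 0.0029 when the displaced arrays, which are of other groups, were left out of the fit. LIFR, the other chain of the LIF receptor, lay at 2.50 to 2.82 in the group means, CXCR2 at 3.03 to 3.30 and CCR6 at 2.85 to 2.98, all near background. CXCR1 lay just above it, at 6.55 to 6.91.

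**Figure D4:**
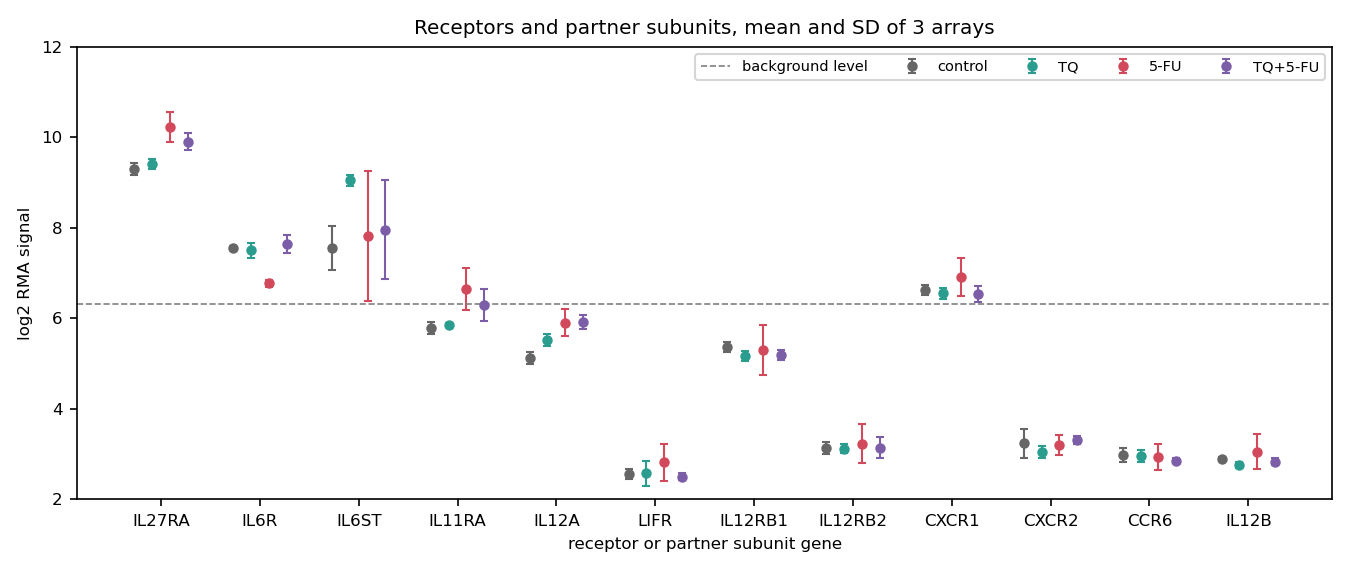
Log2 RMA signal of 12 receptor and partner subunit genes, mean and SD of 3 arrays in each group, with the background level of 6.31 as a dashed line; the x axis gives the gene. IL27RA and IL6R are above the line in all groups, IL6ST has SDs of 1.44 and 1.09 in the 2 groups with 5-FU, and CXCR2, CCR6 and LIFR lie under 3.5.

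Of 24 other chemokine genes, none passed limma's test in any of the 6 comparisons, and all 24 were near background in all groups. At an unadjusted p under 0.05 there was 1, with both drugs against 5-FU, and 0 in the other 5 comparisons. The fit without the displaced arrays called 2 lower with TQ, where 32.4% of all genes passed, and 1 higher with both drugs against 5-FU, where 3.67% of all genes were higher. Their median difference with 5-FU was 0.23, and -0.03 without the displaced arrays. Among them were CXCL6, PF4, PPBP and CXCL5, neighbours of the CXCL genes in the same cluster on chromosome 4, with group means of 2.58 to 2.65, 5.94 to 6.31, 2.82 to 2.94 and 2.82 to 3.00. CXCL10, a chemokine induced by interferon, had 4.39 ± 0.07 in the control and 4.80 ± 0.54 with 5-FU (SD, n = 3).

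Of 24 other cytokine genes 3 rose with 5-FU, as did 4.32% of all genes, and none fell. CSF1, the macrophage colony-stimulating factor, rose by 1.64 (limma adjusted p = 6.23e-04), from 7.54 ± 0.05 to 9.18 ± 0.37 (SD, n = 3), and fell by 0.99 (adjusted p = 0.0433) with both drugs against 5-FU. IL32 rose by 0.74 (limma adjusted p = 0.0170) at signals of 10.79 in the control and 11.53 with 5-FU, and IL15 rose by 0.93 (adjusted p = 0.0261) near background. With TQ and with both drugs against the control 0 passed limma's test, and 1 and 2 had an unadjusted p under 0.05. In the fit without the displaced arrays 1 rose and 5 fell with TQ, where 32.4% of all genes passed, and 2 rose with both drugs, where 12.7% did. Against TQ alone, CSF1 was higher by 0.95 with both drugs (limma adjusted p = 0.0442).

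The NF-κB list, with subunits, inhibitors and upstream proteins, held 14 measured genes, of which 6 rose with 5-FU, where 4.32% of all genes did, and none fell. TRAF1, an adaptor of the TNF receptor family, rose by 3.91 (limma adjusted p = 2.98e-05), TNFAIP3, the feedback inhibitor A20, by 1.91 (adjusted p = 1.15e-05), and NFKBIE, an inhibitor of NF-κB, by 1.90 (adjusted p = 0.00122). TRAF1 was near background in the control, at a mean of 5.89, and at 9.80 with 5-FU. NFKB2, the p100 subunit gene, rose by 1.57 (limma adjusted p = 0.00832). With both drugs against the control TRAF1, TNFAIP3 and the kinase gene MAP3K14 rose, by 1.31, 1.21 and 1.45, where 1.78% of all genes rose. Between both drugs and 5-FU, TRAF1 fell by 2.61 (limma adjusted p = 0.0035) and TNFAIP3 by 0.70 (adjusted p = 0.0188), where 0.368% of all genes fell. Both had an interaction past the threshold, of -3.20 and -1.21, where 0.0418% of all genes had one below zero. With TQ alone 0 of the 14 passed limma's test, and 4 had an unadjusted p under 0.05. Leaving out the displaced arrays, 5 rose and 2 fell with TQ, where 32.4% of all genes passed. In that fit 7 rose with both drugs, as did 12.7% of all genes, and 5 fell with both drugs against 5-FU, as did 3.24%.

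The list of AP-1, C/EBP and stress factors held 14 genes, and in it genes moved both ways. With 5-FU 5 rose and 2 fell, where 4.32% and 2.97% of all genes did: ATF3, a stress factor, rose by 2.92 (limma adjusted p = 2.92e-06), FOS by 1.96 (adjusted p = 5.83e-04) and FOSL2 by 1.73 (adjusted p = 0.0110), while ATF4 fell by 1.12 (adjusted p = 1.60e-04). FOSL2 was near background in the control, at a mean of 5.92, and at 7.65 with 5-FU. With TQ alone, where 0.267% of all genes passed, 2 rose, FOS by 1.97 (limma adjusted p = 0.00778) and ATF3 by 0.80 (adjusted p = 0.0497), and ATF4 fell by 0.61 (adjusted p = 0.0430). FOS and ATF3 also rose with both drugs against the control, by 2.93 and 2.57, FOSB rose by 1.59, and ATF4 fell by 0.47. In that comparison 1.78% of all genes rose and 2.63% passed in either direction. Against 5-FU, ATF4 was higher by 0.64 with both drugs (limma adjusted p = 0.0183), where 0.435% of all genes were higher, and no gene of the list fell. With the displaced arrays left out, TQ had 4 that rose and 4 that fell, where 32.4% of all genes passed. In that fit 5-FU had 6 that rose and 4 that fell, against 14.9% and 13.4% of all genes, and both drugs had 8 and 2, against 12.7% and 10%. For both drugs against 5-FU it called 5 higher and 2 lower, where 3.67% and 3.24% of all genes were.

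Of 13 genes of gp130 signaling 3 rose with 5-FU, where 4.32% of all genes did: SOCS1, a feedback inhibitor of cytokine receptors, by 1.22 (limma adjusted p = 0.0464), STAT3 by 0.91 (adjusted p = 4.75e-04) and the kinase gene TYK2 by 0.82 (adjusted p = 0.00438). SOCS1 was near background in the control, at a mean of 5.62, and at 6.83 with 5-FU. STAT3 fell by 0.72 (limma adjusted p = 0.00935) with both drugs against 5-FU, and both with TQ alone and with the 2 drugs together against the control 0 of the 13 passed limma's test, where 2 and 3 had an unadjusted p under 0.05. Once the displaced arrays were left out, 2 rose and 2 fell with TQ, where 32.4% of all genes passed. Then 5 rose with 5-FU and 4 with both drugs, against 14.9% and 12.7% of all genes. SOCS3, another feedback gene of this pathway, differed by 0.54 with 5-FU (limma adjusted p = 0.329). Of 10 genes that act on the decay of cytokine transcripts 3 fell with 5-FU, where 2.97% of all genes did, HNRNPD by 0.70, RC3H1 by 0.54 and ZFP36L1 by 0.48 (limma adjusted p = 0.00881, 0.0132 and 0.0269). RC3H1 was near background in all groups, at means of 4.07 to 4.61. None of the 10 passed limma's test in the other 5 comparisons, where 1 to 4 had an unadjusted p under 0.05. The number that fell without the displaced arrays was 7 with 5-FU and 5 with both drugs, against 13.4% and 10% of all genes. With TQ 4 fell and 1 rose, where 32.4% of all genes passed.

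For each of the 7 genes that rose with 5-FU, the genes with the most similar signals over the 12 arrays were listed by Pearson's r, as a description that the shared groups and the displaced arrays shape. EBI3 was most like TMEM40 (r = 0.988), GPX1 (0.984) and ICAM1 (0.984). CXCL2 was most like TMEM40 (r = 0.990), EBI3 (0.982) and TYK2 (0.978), and CXCL3 like TNFSF9 (0.993), RHBDF1 (0.987) and IRF1 (0.987). CXCL1 was most like RTN1 (r = 0.971), FAAP24 and TMEM40 (0.947), so that TMEM40 was among the 3 genes nearest to EBI3, CXCL1 and CXCL2. IL11 had another set, MPC2 (r = 0.995), PHLDA3 (0.994) and ISG20 (0.994). CXCL8 was most like TSGA10 (r = 0.957), OPTN (0.943) and CASP10 (0.941), and CCL20 like N4BP2L1 (0.945), GREB1 (0.938) and DUSP10 (0.925). Without the displaced arrays these values lay between 0.904 and 0.994.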

How the data were processed

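The authors hybridised RNA of RKO cells to Human Genome U133A 2.0 arrays and deposited log2 signals after robust multi-array averaging, 1 column for each of the 12 arrays; GeneSpring is named for this step in the study's methods and Affymetrix Expression Console in the submitters' processing notes, which the values cannot settle. The signals were used as deposited. Of 22277 probe sets, 62 array controls were left out and 22215 tested. By the platform annotation 19064 name 1 gene, 1043 several and 2108 none. No 2 arrays held identical values.

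Differences were computed with limma 3.58.1 (R 4.3.3) from a model of 4 group means over all 12 arrays, with empirical Bayes moderation and Benjamini-Hochberg adjustment over all tested probe sets at 0.05, two-sided; the fit was tested on simulated data. An exact test of 3 arrays against 3 cannot give a p under 0.1. TQ was not set against 5-FU. The background level is the 90th percentile of the 12-array means of 35 measured genes of 45 listed from other tissues.

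The genes and lists were chosen with earlier results of these data known. The genes named are the 9 cytokine and chemokine genes, the receptors and partner subunits, up to 4 genes past the threshold with the largest change per list and comparison, and the 3 genes most correlated with each of the 9 that passed against the control; SOCS3, CXCL10, the cluster's other chemokine genes were added after their values were seen. Alternatives were the methods' ANOVA and t-test, limma on the groups compared, a replicate block, centring, quantile normalization, leaving out the 30% of probe sets with the lowest means, another choice of probe set, array weights, another variance prior, another background percentile and leaving out each array, and, added after the data were seen, leaving out both displaced arrays. The plots come from matplotlib 3.10.9 under Python 3.11.15.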

Additional observations from a re-analysis of the deposited data

Results flagged for a closer look

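EBI3 was singled out because the test of an interaction between TQ and 5-FU passed the threshold. In control cells TQ changed its log2 signal by -0.35 (95% interval -0.91 to 0.21) and in 5-FU treated cells by -2.997 (95% interval -3.56 to -2.43), and the test of the difference between them gave -2.65 (limma adjusted p = 0.0318). The 3 arrays with both drugs lay below the 3 arrays with 5-FU. EBI3 stood near background in the control, with TQ and with both drugs, at group means of 5.17, 4.83 and 6.09. A lowering by TQ without 5-FU could not be read at that level, so the value cannot be told apart from the difference between both drugs and 5-FU. Without the 2 displaced arrays the value was -2.45, and without any single array other than 5-FU replicate 3 it missed the threshold. What lies behind the difference was not tested.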

How the results depend on the processing

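The 7 calls with 5-FU against the control and the directions of those genes were kept in every setting that used all 4 groups except the methods' ANOVA with Tukey's HSD (6 calls) and the filter on dim probe sets (5 calls, with CXCL1 and CCL20 left out); array weights called 9. Calls were fewer with the methods' t-test and Benjamini-Hochberg adjustment (2 with 5-FU, and 0 with both drugs against the control, 5-FU or TQ), and with limma on the groups compared (3 with 5-FU, 1 with TQ, 2 with both drugs against the control and 0 against 5-FU). The methods' t-test without adjustment gave 1 with TQ, 4 with both drugs against the control, 5 against 5-FU and 5 against TQ, and the ANOVA 3 with both drugs against the control and 3 against TQ. Among the alternatives, the share of all genes called was computed only without both displaced arrays. Counts in the other settings, array weights included, therefore describe the 9 genes alone and cannot be set against all genes.

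Both drugs against TQ had 0 calls with quantile normalization, with centring and with the mean over probe sets, and 2 without the 30% dimmest probe sets, a filter that leaves out CXCL1, CCL20 and IL6; the interaction had 0 with centring. Array weights, whose estimation did not converge and which gave TQ+5-FU replicate 3 a weight of 110 and 5-FU replicate 3 one of 0.0063, called 2 with TQ, 7 with both drugs against the control, 8 against 5-FU, 8 against TQ and 8 in the interaction. Without the 2 displaced arrays there were 4 calls with both drugs against the control, 5 against 5-FU, 4 against TQ and 4 in the interaction. Leaving out 1 array gave 0 to 4 calls with both drugs against the control, 0 to 3 against TQ and 0 to 3 in the interaction, in each case highest without 5-FU replicate 3. Near background in all groups were 3 genes, and 4 with the 95th percentile.

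With the replicate block, both drugs against TQ and the interaction had 0 calls each, CXCL1 between both drugs and 5-FU was lost (adjusted p = 0.0953), and the other counts stayed within 1.5 times. Of 18 same-numbered pairs 6 had a correlation of their deviations over 0.1, in a range of -0.84 to 0.86. The displaced arrays, 5-FU replicate 3 and TQ+5-FU replicate 2, bear different numbers and had correlated deviations (0.88). They shape these values, so whether the numbers pair the arrays cannot be read from them.

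Signs turned in differences near zero. For TQ against the control, quantile normalization gave 0.0026 in CXCL2, 0.019 in CXCL3 and -0.032 in IL11, centring -0.0074 and array weights -0.054 in IL11. Leaving out 1 array gave -0.11 to 0.032 in CXCL2, -0.084 to 0.0096 in CXCL3, -0.14 to 0.16 in IL11 and -0.025 to 0.23 in CCL20. IL6 with 5-FU was -0.066 with quantile normalization, -0.22 with array weights (limma adjusted p = 0.00416), -0.15 without the displaced arrays and -0.15 to 0.13 without 1 array. IL6 with both drugs against 5-FU was -0.027 to 0.25 without 1 array, and the interaction of LIF was 0.13 with array weights and -0.31 to 0.049 without 1 array. The cause of these changes was not tested.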
